A study of Mus musculus with 12 samples.

Results

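The genes described here are Trem2, Tyrobp, Syk, Apoe, Lpl, Gpnmb, Cd68 and Aif1, 8 genes of the TREM2 pathway and of activated microglia. They were taken by name from a table of 14317 genes, and all 8 were in it. The mRNA-seq libraries came from the ischemic penumbra of the cortex on the operated side of 6 tMCAO/R mice and 6 Sham mice, 1 library per mouse. In the tMCAO/R mice the right side was occluded with an intraluminal suture for 60 min and reperfused for 24 h, and the Sham mice had sham surgery. All mice were described as male C57BL/6J, a common inbred strain, at an age of 8 weeks. The deposited values are FPKM, in which fragments are divided by gene length and library size. Their steps gave back whole fragments for every gene, 13048211 to 14980616 per tMCAO/R library and 13483607 to 15799130 per Sham library.

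TREM2 is a receptor on the surface of microglia that binds lipids and lipoproteins, apolipoprotein E among them. It has no signalling tail of its own and passes its signal through the adaptor TYROBP, also known as DAP12, whose ITAM motif recruits the kinase SYK. In mouse models of neurodegeneration, microglia that take up lipid debris through TREM2 raise Apoe, Lpl and Gpnmb, and Cd68 and Aif1 (which encodes IBA1) are the usual stains of phagocytic microglia and of microglia in general. In the brain Apoe is also made by astrocytes.

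The libraries differed in ways beyond the surgery. Library 4 of the tMCAO/R group stood apart from the rest of its group, with a median Spearman correlation of 0.908, whereas its 5 fellow libraries reached 0.964 to 0.974 and Sham libraries 0.976 to 0.987. The log2FC of each of the 8 genes is therefore given with and without it. Fragments of mitochondrial genes made up 8.69% of library 4, 2.85% to 4.66% of its 5 fellow libraries and 5.29% to 8.51% of the Sham libraries, and the part of this in the values of the 8 genes was not tested. Ddx3y, a gene of chromosome Y, stood at 5.49 to 12.1 FPKM in tMCAO/R mice, while all 6 Sham mice listed it at 0, and the same held for Eif2s3y, Kdm5d and Uty. The Sham libraries go against the male label in this respect, and sex and surgery cannot be told apart in any comparison made here. Markers of the hippocampus summed to 74.9 to 105 FPKM in tMCAO/R mice and 262 to 374 FPKM in Sham mice, and markers of the striatum to 57.5 to 545 FPKM in tMCAO/R mice and 27.2 to 37.4 FPKM in Sham mice. The dissected tissue thus differed in its regional markers between the groups, and the part of this in the values of the 8 genes was not tested.

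The start regions of the receptor and the kinase of the pathway are shown because Trem2 fell in the values below and Syk was not called in any fit. Each sequence is the 250 bases before the start of the canonical transcript (GENCODE M39) on the plus strand of GRCm39, at chr17:48653179-48653428 for Trem2 and chr13:52736446-52736695 for Syk. Capitals mark GAGGAA, the core of the motif of PU.1, a transcription factor of myeloid cells, searched on both strands and here met as TTCCTC.
Trem2: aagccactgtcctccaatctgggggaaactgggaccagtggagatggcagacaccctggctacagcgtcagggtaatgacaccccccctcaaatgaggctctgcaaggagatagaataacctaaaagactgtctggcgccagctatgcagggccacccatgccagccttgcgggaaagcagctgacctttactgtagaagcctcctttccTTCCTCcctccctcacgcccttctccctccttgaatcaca
Syk: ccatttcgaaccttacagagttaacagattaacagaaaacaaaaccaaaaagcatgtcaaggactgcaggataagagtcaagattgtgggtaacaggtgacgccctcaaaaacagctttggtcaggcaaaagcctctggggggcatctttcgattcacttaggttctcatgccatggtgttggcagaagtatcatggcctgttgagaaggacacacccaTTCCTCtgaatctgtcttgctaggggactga
The core stood in this window of Trem2, Syk, Lpl and Cd68, 4 of the 7 members read for it, and in 23.1% of 14305 such windows of protein-coding genes. The E-box CACGTG, the core motif of TFEB and related factors of lysosomal genes, stood in none of these 7 windows and in 7.47% of all. The PU.1 core was thus present both in genes that fell and in Syk.

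Most of the 8 genes were lower in tMCAO/R mice. Trem2, Tyrobp, Apoe, Gpnmb, Aif1 and Cd68 fell, Lpl did not pass the test, none rose, and Syk was below the minimum for the test. The words rose and fell are used for an adjusted p below 0.01 in limma on log2(FPKM + 1), which was run on the 11743 genes that reached a minimum of 0.5 FPKM in 6 or more libraries. Of those genes 17.8% fell and 17.8% rose, with a median log2FC of -0.01. Gpnmb passed that minimum only through its Sham values. With no minimum all 8 were tested and the 6 fell again, where 16.5% of all genes fell and 15.5% rose. Without mouse 4 the same 6 fell (21.3% of all tested genes fell and 21.9% rose). Since 1 FPKM is added before the logarithm, the log2FC of the low genes (Gpnmb, Aif1, Cd68 and Trem2) are understated. None was higher at an unadjusted p of 0.05 either, in limma or limma-voom. On this scale none of the 8 reached a |log2FC| of 2, the threshold of the study for a differentially expressed gene, which it applied to DESeq2 results. In limma-voom on whole fragments Gpnmb passed it (log2FC -3.23, adjusted p = 0.000324), also without mouse 4 (log2FC -2.49, adjusted p = 1.27e-05). The tissue was sequenced in bulk, so fewer microglia and less RNA of a gene per cell cannot be told apart.

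**Figure D1:**
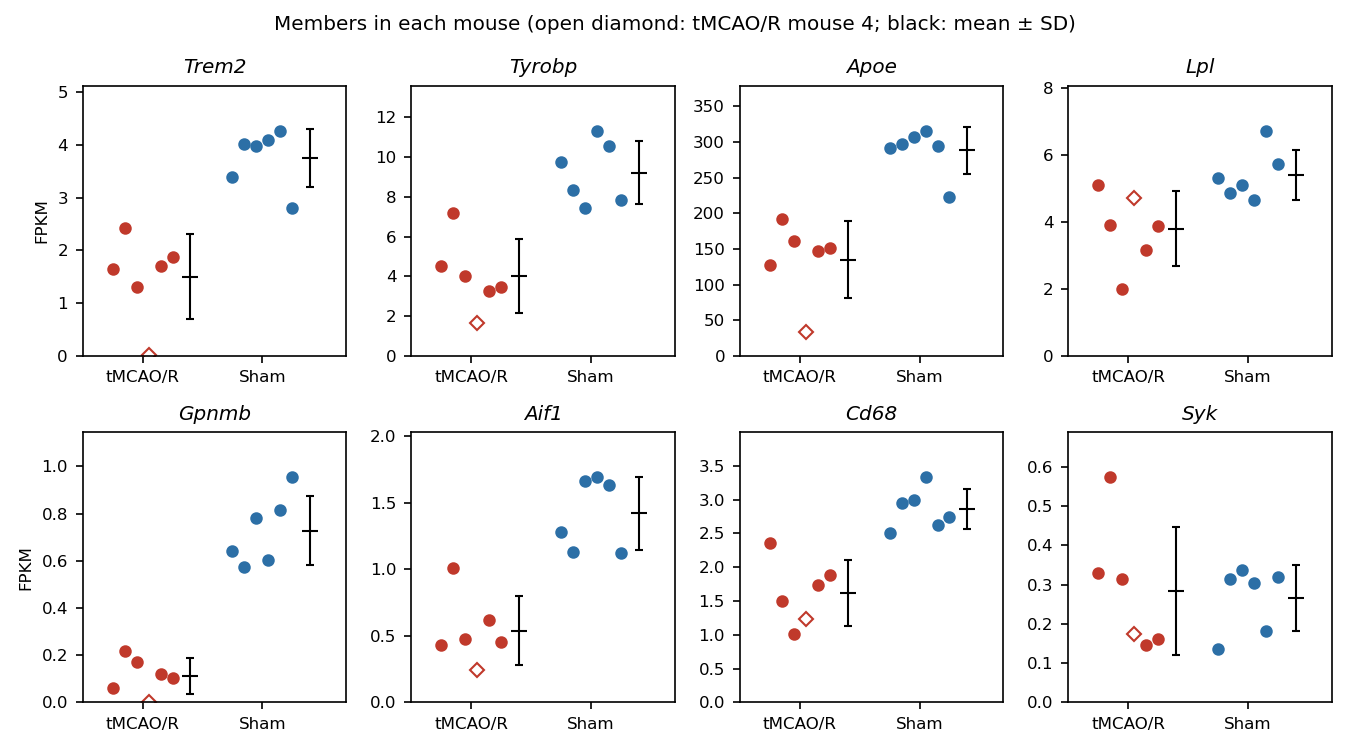
FPKM (y axis, linear, from 0) of the 8 genes in each tMCAO/R and Sham mouse, 1 point per mouse, with the mean ± SD in black and tMCAO/R mouse 4 as an open diamond. The 6 tMCAO/R points lie below all Sham points for Trem2, Tyrobp, Apoe, Gpnmb, Aif1 and Cd68, and overlap them for Lpl and Syk.

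Trem2, the receptor (ENSMUSG00000023992, chr17:48653429-48661175, plus strand), fell to 39.9% of its Sham mean. Its FPKM were 1.65, 2.42, 1.32, 0.0205, 1.71 and 1.88 in tMCAO/R mice 1 to 6, against 3.39, 4.01, 3.98, 4.10, 4.26 and 2.81 in Sham mice 1 to 6. Every tMCAO/R mouse lay below the lowest Sham mouse, and mouse 4 stood far below the other 5. The mean was 1.50 ± 0.810 FPKM in tMCAO/R mice and 3.76 ± 0.551 FPKM in Sham mice (SD, n = 6 each; log2FC -1.01, standard error 0.22, adjusted p = 0.00194, limma). The tMCAO/R value of mouse 4 rested on 2 fragments (exact Poisson 95% interval 0.242 to 7.22, at most 0.0742 FPKM, counting error only), where the other tMCAO/R libraries held 147 to 265 and the Sham libraries 284 to 464. Without mouse 4 the tMCAO/R mean was 1.80 ± 0.403 FPKM (n = 5), 47.8% of the Sham mean, and the fall was smaller and more precise (log2FC -0.77, standard error 0.11, adjusted p = 5.12e-05, limma). Mouse 4 thus decided the spread and, in limma-voom, the call. Limma-voom on the whole fragments gave a log2FC of -1.98 with all 12 mice, which did not pass (standard error 0.66, adjusted p = 0.0208), and -1.08 without mouse 4, which did (adjusted p = 3.26e-05). The call was also lost with 0.1 in place of 1 FPKM added (log2FC -1.70, adjusted p = 0.0231, limma).

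Tyrobp, the adaptor that carries the signal of TREM2 and of several other myeloid receptors (ENSMUSG00000030579, chr7:30113170-30117010, plus strand), fell to 43.6% of its Sham mean. Its values were 4.54, 7.21, 4.00, 1.63, 3.28 and 3.46 FPKM in tMCAO/R mice 1 to 6, against 9.77, 8.36, 7.42, 11.3, 10.6 and 7.85 FPKM in Sham mice 1 to 6. The highest tMCAO/R mouse, mouse 2, came within reach of the lowest Sham mouse but did not pass it. The mean was 4.02 ± 1.84 FPKM in tMCAO/R mice and 9.21 ± 1.57 FPKM in Sham mice (SD, n = 6 each; log2FC -1.09, standard error 0.21, adjusted p = 0.000583, limma). Mouse 4 was again the lowest, at 36.3% of the mean of the other 5. Without it the fall stood at a log2FC of -0.92 (adjusted p = 0.000257), and limma-voom called it with 12 mice (log2FC -1.27, adjusted p = 0.000343).

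Syk, the kinase that binds the phosphorylated adaptor (ENSMUSG00000021457, chr13:52736696-52802828, plus strand), was low in both groups. It stood at 0.329, 0.573, 0.315, 0.174, 0.148 and 0.163 FPKM in tMCAO/R mice 1 to 6, against 0.137, 0.316, 0.338, 0.304, 0.182 and 0.319 FPKM in Sham mice 1 to 6. The groups overlapped throughout, and tMCAO/R mouse 2 was the highest of all 12. The tMCAO/R libraries held 35 to 152 of its fragments and the Sham libraries 39 to 88. Limma-voom on these fragments gave a log2FC of 0.05 (95% interval -0.66 to 0.755, adjusted p = 0.916) with all mice and of 0.15 without mouse 4 (adjusted p = 0.732). The interval holds changes in both directions, so these data do not show that Syk was alike in the groups.

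Apoe encodes the main apolipoprotein of the brain, a ligand of TREM2 (ENSMUSG00000002985, chr7:19430034-19434947, minus strand), and was the most abundant of the 8 per length in both groups. Its values were 128, 192, 161, 33.3, 147 and 151 FPKM in tMCAO/R mice 1 to 6, against 291, 298, 307, 315, 295 and 223 FPKM in Sham mice 1 to 6. Again no tMCAO/R mouse reached the lowest Sham mouse, number 6, and mouse 4 was at 21.4% of the mean of the other 5 tMCAO/R mice. The mean was 135 ± 54.2 FPKM in tMCAO/R mice and 288 ± 33.2 FPKM in Sham mice (SD, n = 6 each), 46.9% of Sham (log2FC -1.25, standard error 0.32, adjusted p = 0.00510, limma). Without mouse 4 the mean was 156 ± 23.6 FPKM (n = 5), 54.0% of Sham (log2FC -0.89, standard error 0.11, adjusted p = 2.61e-05). With mouse 4 in the fit the call was close to the threshold. It was lost when Sham mouse 1, 2, 3, 4 or 5 was left out (log2FC -1.25 to -1.22, adjusted p = 0.0108 to 0.0121) and after quantile normalization (log2FC -1.02, adjusted p = 0.0113), while limma-voom called it (log2FC -1.26, adjusted p = 0.00278).

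Lpl, lipoprotein lipase, which frees fatty acids from triglyceride-rich particles (ENSMUSG00000015568, chr8:69284603-69360100, plus strand), was not called. It stood at 5.12, 3.90, 2.01, 4.72, 3.18 and 3.89 FPKM in tMCAO/R mice 1 to 6, against 5.32, 4.87, 5.12, 4.66, 6.72 and 5.73 FPKM in Sham mice 1 to 6. Mice 1 and 4 of the tMCAO/R group lay within the Sham range and the other 4 below it, and mouse 4 was at 130% of the mean of the other 5, unlike in the genes above. The mean was 3.80 ± 1.11 FPKM in tMCAO/R mice and 5.40 ± 0.747 FPKM in Sham mice (SD, n = 6 each; log2FC -0.44, standard error 0.15, adjusted p = 0.0231, limma). Without mouse 4 the value moved to -0.50 (adjusted p = 0.0104), and limma-voom without mouse 4 called it (log2FC -0.63, adjusted p = 0.00693), the only fit with a threshold of 0.01 that did. In that fit 7 of the 8 genes fell, where 20.5% of all tested genes fell and 21.1% rose.

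Gpnmb, a membrane glycoprotein of lysosome-rich phagocytes (ENSMUSG00000029816, chr6:49013426-49047863, plus strand), had the lowest level relative to Sham of the 8, 15.4% of its Sham mean. It was measured at 0.0601, 0.220, 0.171, 0, 0.119 and 0.104 FPKM in tMCAO/R mice 1 to 6, against 0.642, 0.573, 0.780, 0.603, 0.817 and 0.953 FPKM in Sham mice 1 to 6. These were 8, 29, 23, 0, 14 and 13 fragments in tMCAO/R mice against 73 to 116 in Sham mice, and the 0 of mouse 4 allows up to 0.0256 FPKM if 3 fragments are taken as the limit of a count of 0, or 0.0315 FPKM by the exact Poisson 95% upper limit used for Trem2 (counting error only). The highest tMCAO/R mouse stood well below the lowest Sham mouse. The mean was 0.112 ± 0.0780 FPKM in tMCAO/R mice and 0.728 ± 0.147 FPKM in Sham mice (SD, n = 6 each), and it passed the minimum only through its Sham values, so it had to differ in that test (log2FC -0.63, standard error 0.07, adjusted p = 6.11e-06, limma). Limma-voom, which does not compress low values in this way, put its log2FC at -3.23 (standard error 0.58, adjusted p = 0.000324), and at -2.49 without mouse 4 (adjusted p = 1.27e-05).

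Cd68, a glycoprotein of late endosomes and lysosomes of macrophages and microglia (ENSMUSG00000018774, chr11:69555037-69557067, minus strand), fell to 56.8% of its Sham mean. Its values were 2.36, 1.50, 1.01, 1.24, 1.73 and 1.88 FPKM in tMCAO/R mice 1 to 6, against 2.51, 2.95, 2.99, 3.33, 2.62 and 2.74 FPKM in Sham mice 1 to 6. The groups came close without overlapping, and here mouse 3, not mouse 4, was the lowest. The mean was 1.62 ± 0.484 FPKM in tMCAO/R mice and 2.86 ± 0.296 FPKM in Sham mice (SD, n = 6 each; log2FC -0.57, standard error 0.11, adjusted p = 0.000851, limma). It fell as well without mouse 4 (log2FC -0.53, adjusted p = 0.00118) and in limma-voom (log2FC -0.85, adjusted p = 0.00189).

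Aif1, which encodes the calcium-binding protein IBA1 (ENSMUSG00000024397, chr17:35387384-35395053, minus strand), fell to 37.9% of its Sham mean. It stood at 0.428, 1.01, 0.476, 0.243, 0.618 and 0.454 FPKM in tMCAO/R mice 1 to 6, against 1.28, 1.13, 1.66, 1.69, 1.63 and 1.13 FPKM in Sham mice 1 to 6. Mouse 2 was the highest and mouse 4 the lowest of the tMCAO/R group, and all 6 lay below the Sham range. The mean was 0.538 ± 0.261 FPKM in tMCAO/R mice and 1.42 ± 0.271 FPKM in Sham mice (SD, n = 6 each; log2FC -0.66, standard error 0.11, adjusted p = 0.000195, limma). The fall remained without mouse 4 (log2FC -0.60, adjusted p = 0.000228) and was larger in limma-voom (log2FC -1.46, adjusted p = 0.000325). Only 2 of the tMCAO/R libraries reached 0.5 FPKM of Aif1.

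**Figure D2:**
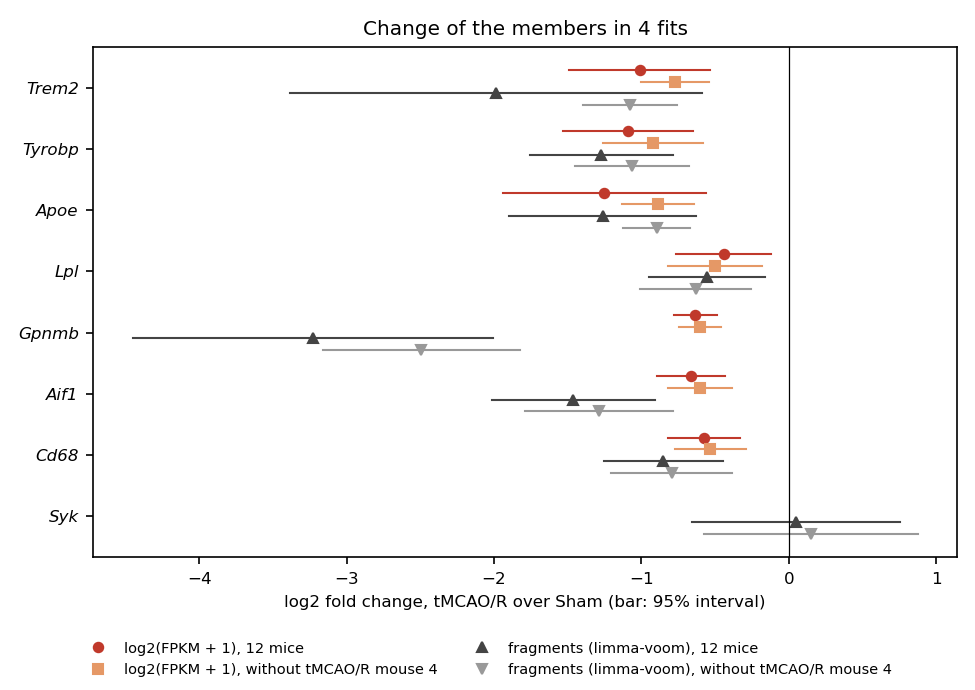
The log2FC of the 8 genes, tMCAO/R over Sham (x axis, log2 scale, bars 95% intervals), in limma on log2(FPKM + 1) and in limma-voom on whole fragments, each with 12 mice and without tMCAO/R mouse 4. The intervals of Trem2 and Apoe narrow when mouse 4 is left out, and those of Syk hold 0.

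Mouse 4 had the lowest value of the tMCAO/R group in 5 of the 8 genes (Trem2, Tyrobp, Apoe, Gpnmb and Aif1), mouse 3 in Lpl and Cd68, and mouse 5 in Syk. Mouse 2 had the highest in 6, all but Lpl and Cd68, where mouse 1 was the highest. The 6 genes whose groups did not overlap were all lower in tMCAO/R mice, where 13.2% of the tested genes had every tMCAO/R value below every Sham value and 13.8% had every tMCAO/R value above. Gpnmb is 1 of these 6 and passed the minimum only through its Sham values, so its lack of overlap was fixed by the minimum. In limma-voom with all 12 mice 5 of the 8 fell (Tyrobp, Apoe, Gpnmb, Aif1 and Cd68), where 17.4% of all tested genes fell and 16.1% rose. By level per length the order was Apoe, Tyrobp, Lpl, Cd68, Trem2, Aif1, Syk and Gpnmb in tMCAO/R mice and Apoe, Tyrobp, Lpl, Trem2, Cd68, Aif1, Gpnmb and Syk in Sham mice. Below Apoe, the ranges of every pair of neighbours in this order overlapped in tMCAO/R mice, whereas in Sham mice those of Trem2 and Cd68 alone did.

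The deviation of mouse 4 was related to the base composition of the transcripts across all genes, though not in each of the 8. Across 11741 tested genes, which are not independent replicates, its log2 deviation from the mean of the other 5 tMCAO/R mice had a Spearman correlation of -0.72 with the GC content of the canonical transcript and of 0.24 with its length. Trem2 (57.5% GC), Apoe (56.9%) and Tyrobp (55.5%) were in the top of 4 equal bins by GC content (55.2% to 73.2%), where the median deviation was -0.84. Trem2 lay well below that median, at -3.95, and 8 tested genes deviated further downward. Apoe, at -2.21, and Tyrobp, at -1.35, were also below it. Lpl (43.5% GC) was in the lowest bin (33.0% to 45.8%), where the median was 0.49, and itself deviated by 0.44. Gpnmb (49.5% GC) and Aif1 (48.3%) did not follow their bin (45.8% to 50.5%), whose median was 0.07, and deviated by -1.19 and -0.96. Cd68 (52.7% GC), at -0.38, was close to the median of its bin, -0.36.

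**Figure D3:**
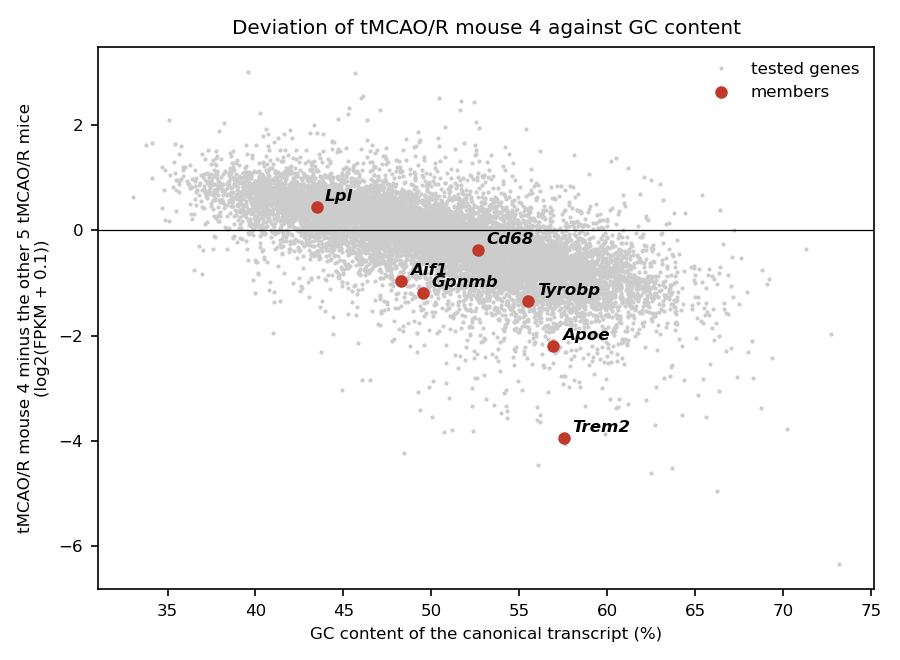
Deviation of tMCAO/R mouse 4 from the mean of the other 5 tMCAO/R mice (y axis, log2 of FPKM + 0.1) against the GC content of the canonical transcript in percent (x axis), 1 grey point per tested gene and the 7 tested genes of the set in red. The cloud runs downward with GC content, and Trem2 lies at its lower edge at -3.95.

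The comparison of the groups was related less to GC content than to length. The log2FC of all tested genes had a Spearman correlation with GC content of -0.20 with all mice and -0.07 without mouse 4, and of 0.41 with transcript length. In 4 equal bins by length, 33.2% of the genes with the shortest transcripts (297 to 2265 bases) fell and their median log2FC was -0.29, against 8.35% and 0.19 for the longest. Trem2, Tyrobp, Apoe and Cd68 belong to the shortest bin, and the log2FC of each was below its median. Aif1 was in the bin of 2266 to 3563 bases (median -0.04), and Lpl and Gpnmb in that of 3564 to 5267 bases (median 0.06). Their log2FC were below these medians as well. The part of length and GC content in the values of these genes was not tested.

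The ratio of 2 genes in the same mouse sets the members beside each other or beside another gene of the same cell type. The ratio of Trem2 to Tyrobp did not differ beyond the spread of the mice, whereas Trem2, Aif1 and Cd68 were lower relative to Csf1r, the receptor for the growth factor that microglia need. Csf1r itself stood at 7.24 ± 1.41 FPKM in tMCAO/R mice and 7.68 ± 0.640 FPKM in Sham mice (SD, n = 6 each) and was not called (log2FC -0.09, adjusted p = 0.518, limma). It changed less than the homeostatic microglia genes listed below as a set, whose median log2FC was -0.53. The ratios to Csf1r therefore do not show that these members fell beyond other microglia genes. The 6 ratios were each put to an exact permutation test over mice, two-sided, with 0.1 FPKM added, p-values adjusted over the 6 and a threshold of 0.05, and the smallest p it can give with 6 against 6 mice is 0.00216.

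The log2 ratio of Trem2 to Csf1r was -1.85, -1.99, -2.27, -5.66, -2.04 and -1.90 in tMCAO/R mice 1 to 6, against -1.12, -0.84, -0.85, -0.82, -0.86 and -1.63 in Sham mice 1 to 6. No tMCAO/R mouse reached the Sham range, and 5 of them lay close together. The difference was -1.60 (exact permutation p = 0.00216, adjusted p = 0.00325) with all mice and -0.99 without mouse 4 (adjusted p = 0.00649), so its size rested in part on mouse 4. That of Aif1 to Csf1r differed by -1.23 (adjusted p = 0.00325) and without mouse 4 by -1.11 (adjusted p = 0.00649, exact permutation tests), again with no overlap. That of Cd68 to Csf1r differed by -0.72 (adjusted p = 0.0104) and without mouse 4 by -0.71 (adjusted p = 0.0182, exact permutation tests), which would not pass the 0.01 used for single genes, and here tMCAO/R mouse 1, at -1.36, was inside the Sham range of -1.66 to -1.11.

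The log2 ratio of Trem2 to Tyrobp was -1.40, -1.54, -1.53, -3.85, -0.90 and -0.85 in tMCAO/R mice 1 to 6, against -1.50, -1.04, -0.88, -1.44, -1.29 and -1.45 in Sham mice 1 to 6. Apart from mouse 4 the groups shared one range. The difference was -0.41 with all mice (exact permutation p = 0.532, adjusted p = 0.532) and turned to 0.02 without mouse 4 (adjusted p = 0.890, exact permutation test). The ratio of Syk to Tyrobp was higher in all 6 tMCAO/R mice, with no overlap. The difference was 1.29 (adjusted p = 0.00325) and 1.15 without mouse 4 (adjusted p = 0.00649, exact permutation tests). With the same 0.1 FPKM added, Tyrobp alone had a log2FC of -1.29 (limma), and Syk was low and not called in any fit. This ratio therefore restates the fall of Tyrobp and does not show a change of Syk. The log2 ratio of Apoe to Aldh1l1, an enzyme that marks astrocytes, was 3.62 to 5.11 in tMCAO/R mice, against 6.14 to 6.62 in Sham mice, a difference of -1.85 (adjusted p = 0.00325) and of -1.65 without mouse 4 (adjusted p = 0.00649, exact permutation tests). Aldh1l1 was at 4.99 ± 1.54 FPKM in tMCAO/R mice and 3.15 ± 0.221 FPKM in Sham mice (SD, n = 6 each). This did not pass with all mice (log2FC 0.49, adjusted p = 0.0147, limma) but did without mouse 4 (adjusted p = 0.000148). Its log2FC lay above that of the astrocyte genes listed below as a set, whose median was 0.05. The size of the difference in this ratio thus rests in part on Aldh1l1, and it is not a measure of Apoe against astrocyte genes in general.

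**Figure D4:**
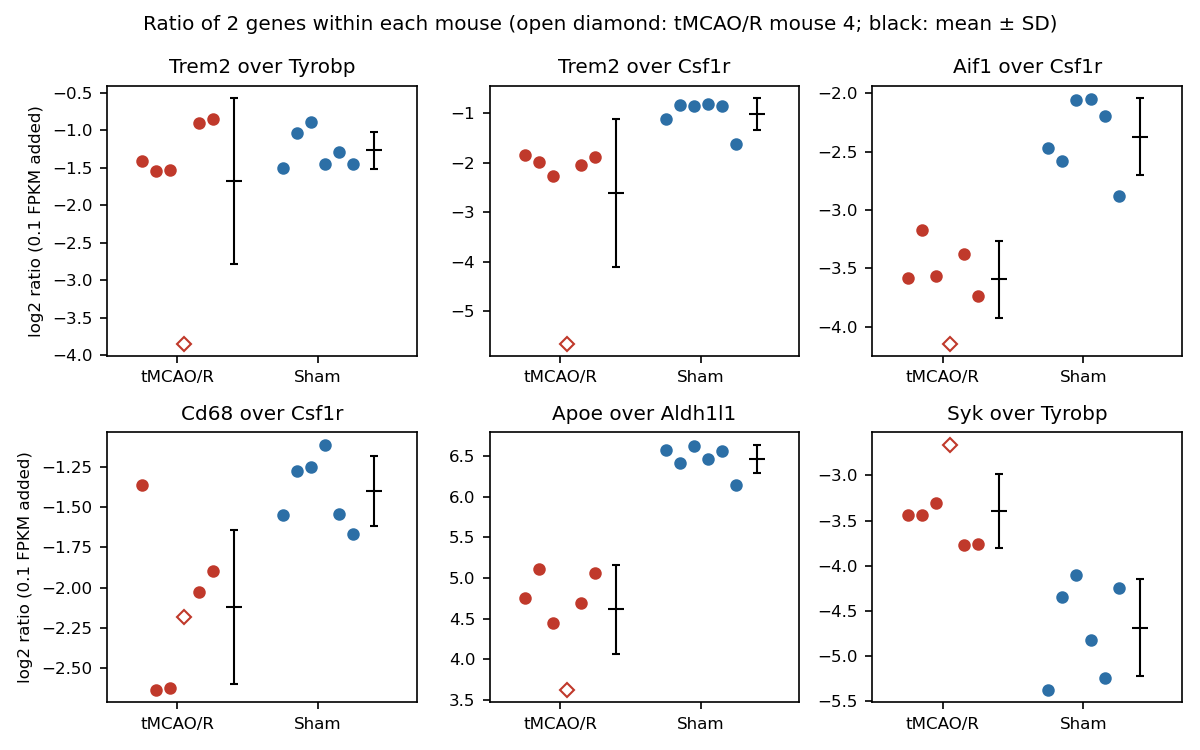
Log2 ratio of 2 genes within each mouse (y axis, 0.1 FPKM added) for the 6 gene pairs compared, 1 point per tMCAO/R or Sham mouse, mean ± SD in black, and tMCAO/R mouse 4 as an open diamond. Trem2 over Csf1r, Aif1 over Csf1r and Apoe over Aldh1l1 are lower and Syk over Tyrobp is higher in tMCAO/R mice with no overlap, while Trem2 over Tyrobp overlaps.

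Calls among the other genes of the pathway were close in share to those over all tested genes, of which 17.8% fell and 17.8% rose. Of 27 genes listed for signalling downstream of TREM2 and for its shedding, 15 were tested, 2 rose and 2 fell, with a median log2FC of 0.01 against -0.01 over all tested genes. Adam10, the protease that sheds the ectodomain of TREM2, rose to 12.3 ± 2.37 FPKM in tMCAO/R mice, against 7.42 ± 1.16 FPKM in Sham mice (SD, n = 6 each; log2FC 0.65, adjusted p = 0.000569, limma). The Src family kinase Fyn rose by a log2FC of 0.30 (adjusted p = 0.00700, limma). In this bulk tissue the cells in which Adam10 and Fyn rose were not determined. The exchange factor Vav3 fell (log2FC -0.41, adjusted p = 0.000284), and so did Plcg2, the phospholipase downstream of SYK (log2FC -0.33, adjusted p = 0.00652). In limma-voom Plcg2 was not called (adjusted p = 0.0150). Limma-voom tested 22 of the list, of which 2 rose and 3 fell, where 16.1% of all tested genes rose and 17.4% fell. Without mouse 4, limma tested 14, and 4 rose and 2 fell, where 21.9% of all tested genes rose and 21.3% fell.

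Of 13 receptors and adaptors with or coupled to ITAM motifs, 4 were tested, 2 fell and none rose, where 17.8% of all tested genes fell and 17.8% rose. Fcer1g, the gamma chain that serves Fc receptors as TYROBP serves TREM2, fell to 3.18 ± 0.954 FPKM in tMCAO/R mice, against 6.08 ± 1.17 FPKM in Sham mice (SD, n = 6 each; log2FC -0.78, adjusted p = 0.000837, limma). Siglech, a microglial lectin that signals through TYROBP, fell as well (log2FC -0.43, adjusted p = 0.000118). The Fc receptor Fcgr3 was not called (log2FC 0.28, adjusted p = 0.343). Limma-voom tested 7 of the list, of which 2 fell and 1 rose, where 17.4% of all tested genes fell and 16.1% rose.

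Genes that activated microglia raise in mouse models, only some of them under the control of TREM2, were listed as well, 29 in all. Their counts are therefore not a reading of TREM2 control. Of the 23 tested, 8 fell and 3 rose, and the median log2FC was -0.26, where 17.8% of all tested genes fell and 17.8% rose. The counts were the same without mouse 4 (21.3% and 21.9% of all tested genes) and in limma-voom (17.4% and 16.1%). Many of them are expressed by other cells of the brain too. The ferritin heavy chain gene Fth1 fell to 194 ± 20.6 FPKM in tMCAO/R mice, against 638 ± 192 FPKM in Sham mice (SD, n = 6 each; log2FC -1.67, adjusted p = 2.69e-06, limma). B2m, the light chain of MHC class I (log2FC -0.94), the tetraspanin gene Cd63 (-0.73) and the fatty acid binding protein gene Fabp5 (-0.54) also fell. Timp2, an inhibitor of metalloproteinases, rose to 65.4 ± 10.2 FPKM in tMCAO/R mice, against 31.3 ± 7.87 FPKM in Sham mice (SD, n = 6 each; log2FC 1.06, adjusted p = 8.15e-05, limma), as did the lysosomal protease gene Ctsl (log2FC 0.47) and the growth factor gene Igf1 (0.32).

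Around Apoe and Lpl, 27 genes of lipoprotein and lipid handling were listed, of which 21 were tested, 4 rose and 3 fell (median log2FC -0.07), close to the 17.8% of all tested genes called in each direction. Abca1, the transporter that loads lipid onto apolipoprotein E, rose to 5.58 ± 1.35 FPKM in tMCAO/R mice, against 2.78 ± 0.513 FPKM in Sham mice (SD, n = 6 each; log2FC 0.79, adjusted p = 0.000308, limma). Angptl4, an inhibitor of lipoprotein lipase, rose by a log2FC of 1.39 (adjusted p = 3.66e-05) and passed the minimum only through its tMCAO/R values, and Sel1l, needed for the release of LPL from the endoplasmic reticulum, rose by 0.51 (adjusted p = 0.00170). The phospholipid transfer protein gene Pltp (log2FC -0.83), Lcat, which esterifies cholesterol on lipoproteins (-0.80), and the lysosomal cholesterol carrier gene Npc2 (-0.55) fell. The receptor gene Lrp1 (log2FC 0.10, adjusted p = 0.531) and Clu, the other abundant apolipoprotein gene of the list (-0.20, adjusted p = 0.0765), were not called.

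Markers of the cell types that could hold these transcripts were read beside them, and their counts too stand against 17.8% of all tested genes in each direction. Of 18 homeostatic microglia genes 8 fell and 1 rose (median log2FC -0.53), and their summed level was 87.2 to 243 FPKM in tMCAO/R mice and 209 to 264 FPKM in Sham mice, with mouse 4 the lowest. Olfml3 (log2FC -1.10), the fractalkine receptor gene Cx3cr1 (-0.88) and Gpr34 (-0.83) fell. The complement genes C1qa (log2FC -0.67, adjusted p = 0.102) and C1qb (-0.73, adjusted p = 0.0191) were not called, while C1qc fell (-0.95, adjusted p = 0.00676, limma). Of 15 genes of border macrophages and infiltrating myeloid cells 4 were tested and none was called by limma, with or without mouse 4. Limma-voom tested 6 of them and called none (in each of these fits 0 also at an unadjusted p of 0.05). The listed genes summed to 3.39 to 11.9 FPKM in tMCAO/R mice and 2.18 to 44.4 FPKM in Sham mice. The high end of the Sham range came from S100a8 and S100a9, neutrophil genes that reached 15.3 and 23.6 FPKM there.

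Among 14 astrocyte genes 2 rose and 3 fell (median log2FC 0.05), and their sums overlapped, at 431 to 513 FPKM in tMCAO/R mice and 485 to 547 FPKM in Sham mice. Gfap, the intermediate filament of reactive astrocytes, fell (log2FC -1.49), and Gjb6 rose (log2FC 0.82). Of 9 tested genes of oligodendrocyte precursors 4 rose and 1 fell (median log2FC 0.34), and of 10 vascular genes 3 rose and 2 fell (median 0.07). Of 10 genes of mature oligodendrocytes 7 fell and none rose (median log2FC -1.05), among them Opalin (-1.91). Of 12 hippocampal markers 10 fell and none rose (median log2FC -1.73), and of 11 tested striatal markers all 11 rose (median 1.90), of which limma-voom called 8. The part of these shifts in the values of Apoe, Trem2 and the other members was not tested.

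**Figure D5:**
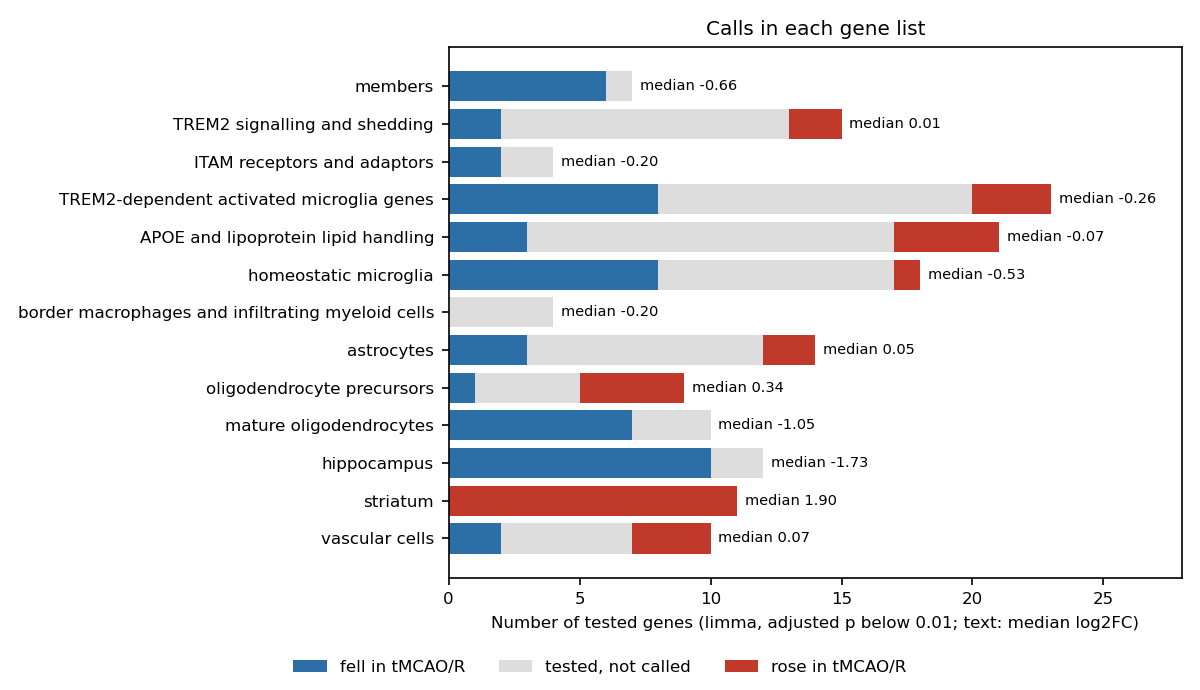
Number of tested genes (x axis) of each list that fell (blue), were not called (grey) or rose (red) in tMCAO/R mice against Sham mice at an adjusted p below 0.01 (limma), with the median log2FC of each list printed beside its bar. Hippocampal and mature oligodendrocyte genes lie on the falling side and striatal genes on the rising side. Of the set itself (members) 6 fell and none rose, and of the ITAM receptors and adaptors 2 fell and none rose. The other lists around TREM2 hold both. The list labelled TREM2-dependent holds activation genes of which only some are under the control of TREM2.

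The genes whose levels ran most like Trem2 over the 12 libraries, after the group means were removed, were Mpv17l2, Hes6, B9d2, Cndp2 and Trappc3 (Pearson's r between 0.97 and 0.98), with Apoe at rank 27 (r = 0.96) and Tyrobp at 0.81. These values rest on mouse 4. Over the 11 libraries without it they were Psma7, Elob, Hmgn2, B9d2 and Fbl (r between 0.90 and 0.93), 1 of them shared, and Trem2 had an r of 0.73 with Aif1, 0.72 with Apoe and 0.56 with Tyrobp. For Tyrobp the closest were Sft2d1, Rtcb, Pithd1, Bccip and Psmg4 (r between 0.94 and 0.99), and without mouse 4 Sft2d1, Bccip, Tbc1d23, Eif3m and mt-Nd3 (r between 0.96 and 0.97), so 2 were shared. These are descriptions over libraries that also share their depth and base composition, and no p was computed.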

How the data were processed

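Libraries of poly(A) RNA from the cortical penumbra, made with random priming, were read as paired ends on an Illumina NovaSeq (6 tMCAO/R and 6 Sham mice, grouped by their titles). Per the methods and the submitters' processing notes, the authors used fastp, HISAT2 2.2.1 (genome GRCm39), HTSeq 2.0.2 and DESeq2 1.24.0, and the deposited table holds FPKM, 1 column per library. The fastp version, gene annotation, strandedness and gene filter are not given in the sources used here. The reads of Trem2, Apoe, Lpl, Gpnmb, Aif1 and Cd68 can therefore not be told apart from those of the 1 antisense lncRNA that overlaps each of them in GENCODE M39.

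Groups were compared with limma 3.58.1 under R 4.3.3 (moderated statistics with an intensity trend) on log2(FPKM + 1), for genes that reached 0.5 FPKM in 6 or more libraries, with Benjamini-Hochberg adjustment over all tested genes. Whole fragments were recovered from the FPKM steps for 14317 of 14317 genes (tolerance 1e-04 fragments) and tested with limma-voom after TMM scaling, for the 13900 genes with at least 10 fragments in at least 6 libraries. Limma-voom called 2244 genes higher and 2416 lower. The 6 ratios were compared by exact permutation tests in Python 3.11.15 (numpy 2.4.6, pandas 2.3.3, scipy 1.17.1). The fits were tested on simulated data.

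The members and gene lists were chosen with earlier results of these data known. The text names the members, the genes of the ratios and C1qc. From each list it names, as far as described, the 3 called genes of smallest p in each direction and the 2 most abundant. For Trem2 and Tyrobp it names the 5 genes with the highest correlation. Listed genes outside the table were not analysed here. Listed genes below the minimum were left out of the limma counts of the lists. They entered the summed levels and, with enough fragments, limma-voom, but are not named. The gene that rose among the homeostatic microglia genes and 1 start region are not reported here. Alternatives covered the added FPKM, the minimum, quantile normalization, limma-voom, the threshold, blocking by replicate number and leaving out each library in turn. Limma-voom without tMCAO/R mouse 4, and the lists and correlations without it, were added after seeing the data. Nothing says whether libraries were prepared in batches, and no 2 libraries held the same values.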

Additional observations from a re-analysis of the deposited data

Results flagged for a closer look

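Of 28 groups of 6 mice tested for a value apart from the rest, 5 had a gap to the nearest mouse, as a share of the whole range of the group, above Dixon's 95% limit for 6 values, where chance passes about 1 in 20. Trem2 in tMCAO/R mice had a gap of 0.678 on the log2(FPKM + 1) scale, with mouse 4 the lowest. Apoe in tMCAO/R mice had a gap of 0.765, again with mouse 4 the lowest. Apoe in Sham mice had a gap of 0.772, with mouse 6 the lowest at 223 FPKM. The log2 ratio of Trem2 to Tyrobp in tMCAO/R mice had a gap of 0.77 and that of Trem2 to Csf1r one of 0.891, both with mouse 4 the lowest. Both ratios reuse the Trem2 value of mouse 4, so the flags are not independent. Their number can therefore not be weighed against 1 in 20. In the same library Trem2 was read with 2 fragments and Gpnmb with 0, while Lpl was at 130% of the mean of the other 5 tMCAO/R mice.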

How the results depend on the processing

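The log2FC of each of the 8 genes kept its direction in every fit that tested it, and none rose in any. Leaving out each library in turn gave 4 to 6 members that fell and 0 that rose, with 1587 to 2480 tested genes lower and 1662 to 2545 higher. The count of members was lower without a Sham library because Gpnmb then reached 0.5 FPKM in too few libraries to be tested and because Apoe was lost without Sham mouse 1, 2, 3, 4 or 5. The log2FC ranged over these omissions from -1.12 to -0.77 for Trem2, -1.25 to -0.92 for Tyrobp, -1.39 to -0.89 for Apoe, -0.52 to -0.32 for Lpl, -0.66 to -0.60 for Gpnmb, -0.74 to -0.60 for Aif1 and -0.65 to -0.50 for Cd68. The ratios ranged from -0.58 to 0.02 for Trem2 to Tyrobp (reversed without tMCAO/R mouse 4, to 0.0236), -1.75 to -0.99 for Trem2 to Csf1r, -1.33 to -1.11 for Aif1 to Csf1r, -0.88 to -0.62 for Cd68 to Csf1r, -1.95 to -1.65 for Apoe to Aldh1l1 and 1.15 to 1.41 for Syk to Tyrobp. At a threshold of 0.05 Lpl passed as well (adjusted p = 0.0231, limma), and with a mean of at least 1 FPKM as the minimum 4 members fell, since Gpnmb and Aif1 were then not tested.

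The mice share replicate numbers, and neither the labels nor the methods say whether same-numbered mice were paired. Deviations from the group means of same-numbered mice had correlations between -0.122 and 0.217, and 1 of 6 Sham libraries correlated best with the tMCAO/R library of its own number. With the replicate number as a block, 6 members fell and none rose, 1699 tested genes fell and 1761 rose (limma). With the numbers as pairs, the difference of Cd68 to Csf1r, -0.72, no longer passed (adjusted p = 0.0750, exact sign-flip permutation test), and the other ratios kept their side of 0.05. Depth limits Syk, Gpnmb, Aif1 and Cd68 most, with at most 152 fragments in any library. Nothing but the separate mice describes the replicates, and the sex-linked and regional markers above differ between the groups in the same way as the surgery.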
